A study of Homo sapiens with 6 samples.

Results

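Mitochondrial ribosomal protein genes (MRP genes) are the nuclear genes that encode the protein subunits of the ribosome inside mitochondria. They were taken as every locus of the deposited table with a gene symbol made of MRPL or MRPS, a number and, where present, a letter from A to C. This rule found 77 of the 47577 loci, spread over 21 chromosomes, and all 77 passed the minimum for testing. In 76 of them the locus carries only the MRP symbol, whereas the remaining locus joins SLC5A3 and MRPS6. PolyA RNA was sequenced from OVCAR3 cells, an established line of high-grade serous ovarian cancer (HGSOC), treated for 6 h either with DMSO, the solvent (3 libraries), or with 200 nM THZ531 (3 libraries). THZ531 is a covalent inhibitor of CDK12 and CDK13, kinases that phosphorylate RNA polymerase II during elongation. The design text describes the 3 libraries of each group as biological repeats of a single cell line. The treatment protocol in the labels speaks of THZ1, a related compound, while titles and design name THZ531.

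The mitochondrial ribosome translates the few mRNAs of the mitochondrial genome, which encode core subunits of the respiratory chain and of ATP synthase. Its rRNAs are made inside the organelle, but its proteins are encoded in the nucleus, translated in the cytosol and imported. Many of these proteins descend from bacterial ribosomal proteins, and others were acquired in the mitochondrial lineage and have no bacterial counterpart. Balanced supply of the subunits matters because they have to be assembled in a fixed ratio on the rRNA, and unassembled ones are degraded.

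A value is the number of reads counted on a locus, divided by the DESeq2 size factor of its library by the authors, and is called here a normalized read count. It is not corrected for gene length. The counted reads summed to 69769011, 60146046 and 70986130 in the DMSO libraries and 53054048, 57953296 and 57935278 in the THZ531 libraries. The lowest value of any MRP gene in any library was 487, so none of the genes was limited by depth. The 8 markers of serous epithelium were all detected, with KRT8 at 153783 ± 3185 and EPCAM at 21222 ± 542 normalized reads in DMSO (SD, n = 3), whereas the T cell marker CD3E was at 0 in every library and the endothelial marker CDH5 at 31.8 ± 11.2. The macrophage marker CD68 was higher, at 404 ± 34.1. PAX8, the lineage factor of this epithelium, fell by 3.18 on the log2 scale (adjusted p = 4.6e-15, limma), from 11272 ± 545 to 1241 ± 121, and was the only marker of the 8 that was called. Of 9 markers of leukocytes, fibroblasts and endothelium, 6 passed the minimum and 2 were called, the collagens COL1A1 and COL3A1, which read 995 ± 47.5 and 724 ± 171 in DMSO and rose by 1.14 and 0.60 (adjusted p = 2.8e-10 and 0.00050, limma). The call of COL3A1 was lost with the same total (0.35), the upper quartile (0.58) and RPL34 (0.10). Summed over the 9, they read 2177, 2104 and 2491 normalized reads in the DMSO libraries and 3787, 3922 and 3707 in the THZ531 libraries, with COL1A1 the most abundant, while the fibroblast proteoglycan DCN read at most 3.19. Their part in the results below was not tested. In bulk RNA, fewer cells of a kind and less RNA per cell cannot be told apart.

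Upon treatment with THZ531, the MRP genes as a group kept their level on the deposited scale, although their share of all reads was lower, as given with the scalings at the end. Their summed values were 332698, 327770 and 323460 normalized reads in the DMSO libraries and 328324, 324246 and 329145 in the THZ531 libraries. The groups overlapped, with means of 327976 ± 4622 and 327239 ± 2624 (SD, n = 3) and a ratio of 0.998. Beneath this even sum, single genes moved in both directions. Expression was compared with limma on the log2(value + 1) scale, and a locus was called when it changed by 1.5-fold or more and passed a p threshold of 0.05 before adjustment. With this rule 4 MRP genes were up-regulated and 5 down-regulated, 11.7% of the 77, whereas 39.5% of the 17568 loci tested were called (15.7% higher and 23.9% lower). Among the 8072 tested loci with a symbol and a DMSO mean in the range of the MRP genes, 30.3% were called. At a fold change of 2, no MRP gene was called, against 23.0% of all loci.

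**Figure D1:**
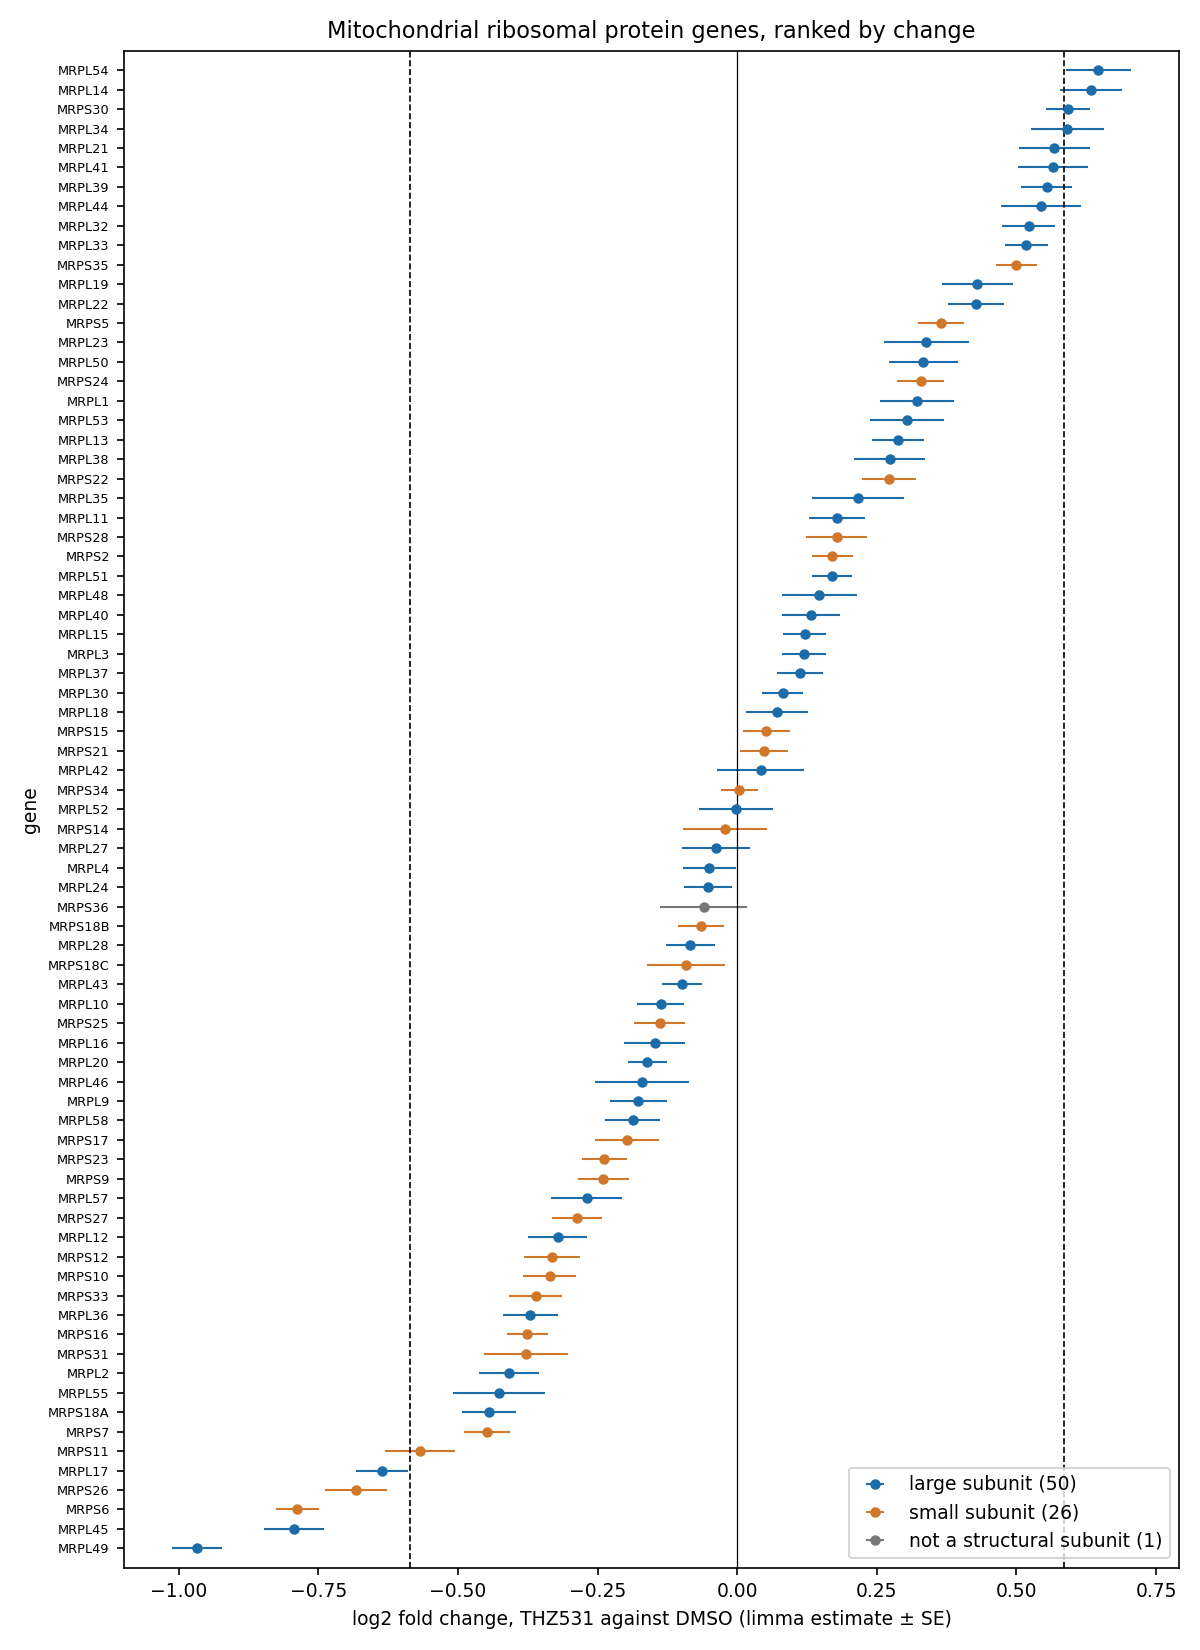
Log2 fold change (THZ531 against DMSO, limma estimate ± SE) of the 77 mitochondrial ribosomal protein genes on the x axis, 1 gene per row, colored by subunit, with dashed lines at a fold change of 1.5. On the deposited scale the points form a continuous series from -0.97 (MRPL49) to 0.65 (MRPL54), and the genes at the top end beyond the dashed line are all of the large subunit.

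The changes were small against all loci. The median coefficient of variation of an MRP gene over the 3 libraries of a group was 3.66% in DMSO and 3.21% in THZ531. For 65 of the 77 genes (84.4%) the values of the groups did not overlap, against 71.7% of all loci tested and 82.9% of the 8072 loci in their range of DMSO means. With a Benjamini-Hochberg adjusted p of at most 0.05 at any fold, 31 genes were higher and 29 lower, and 17 did not pass, against 34.6% of all loci higher and 34.1% lower. The log2 fold changes ranged from -0.97 to 0.65 with a median of 0.00 and 38 genes above 0, and the middle 50% of genes spanned 0.53 log2 units, against a median of -0.01 and a span of 1.05 for all loci. Over the 8072 loci in the same range of DMSO means the span was 0.76. For 36 of the 77 genes the change was at most 1.2-fold in either direction.

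The down-regulated genes were MRPL49, MRPL45, the joined SLC5A3 // MRPS6 locus, MRPS26 and MRPL17. MRPL49 and MRPL45 encode proteins of the large subunit without a bacterial counterpart, and MRPL45 sits at the mouth of the exit tunnel, where the ribosome meets the inner membrane. MRPL49 (chromosome 11, 65122183 to 65127371 on hg38, plus strand) read 5456, 5589 and 5471 in the DMSO libraries and 2688, 2849 and 2917 in the THZ531 libraries. Every treated library was below every control library by a wide margin, with a log2 fold change of -0.97 (SE 0.04, adjusted p = 2.8e-11, limma). MRPL45 (chromosome 17, 38297057 to 38323217, plus strand) read 2616, 2579 and 2476 in DMSO and 1476, 1417 and 1534 in THZ531. The groups were well apart, with a log2 fold change of -0.79 (SE 0.05, adjusted p = 2.1e-09, limma).

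MRPS26 (chromosome 20, 3046052 to 3048254, plus strand), which encodes a protein of the small subunit particular to mitochondria, read 4279, 4436 and 4358 in DMSO and 2505, 2697 and 2963 in THZ531. It had the widest spread between treated libraries of all MRP genes (coefficient of variation 8.44%), yet the groups did not overlap (log2 fold change -0.68, SE 0.06, adjusted p = 1.9e-08, limma). MRPL17 (chromosome 11, 6680385 to 6683340, minus strand), the counterpart of bacterial L17, read 6589, 6975 and 7430 in DMSO and 4583, 4384 and 4529 in THZ531 (log2 fold change -0.64, SE 0.05, adjusted p = 5.1e-09, limma). The SLC5A3 // MRPS6 locus (chromosome 21, 34073523 to 34143034, plus strand) read 9990, 9737 and 9503 in DMSO and 5782, 5626 and 5528 in THZ531 (log2 fold change -0.79, SE 0.04, adjusted p = 4.9e-11, limma). SLC5A3 encodes a myo-inositol transporter, and exons of SLC5A3 and of an unnamed gene cover 33.1% of the MRPS6 transcript on the same strand, so that the fall of this locus cannot be assigned to MRPS6.

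The up-regulated genes were MRPL54, MRPL14, MRPS30 and MRPL34, all of them proteins of the large subunit. MRPS30 was named after the small subunit but was placed in the large subunit by structures of the ribosome. MRPL54 (chromosome 19, 3762674 to 3767565, plus strand), without a bacterial counterpart, read 1419, 1525 and 1371 in DMSO and 2239, 2348 and 2167 in THZ531 (log2 fold change 0.65, SE 0.06, adjusted p = 6.3e-08, limma). MRPL14 (chromosome 6, 44113451 to 44127452, minus strand), whose protein lies at the interface with the small subunit, read 3196, 2891 and 2736 in DMSO and 4378, 4717 and 4575 in THZ531 (log2 fold change 0.63, SE 0.06, adjusted p = 4.5e-08, limma). In both genes the lowest treated library was above the highest control library.

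MRPS30 (chromosome 5, 44808925 to 44815514, plus strand) read 4515, 4604 and 4592 in DMSO and 6802, 7081 and 6799 in THZ531, and MRPL34 (chromosome 19, 17302865 to 17306843, plus strand), the counterpart of bacterial L34, read 1271, 1252 and 1114 in DMSO and 1729, 1890 and 1856 in THZ531. Their fold changes of 1.508 and 1.507 lay just over the threshold. Just under it were MRPL21, with a log2 fold change of 0.57, and MRPL41, with 0.57, both large subunit genes, and on the other side MRPS11, with -0.57. MRPL41, MRPS11 and, below, MRPL44 are named for this position only, after their values were seen. These calls at the edge depended on single libraries. Over 6 fits, each without a single library, MRPL34 was called in 3 (0.53, 0.57 and 0.58 without DMSO replicate 3, THZ531 replicate 2 and THZ531 replicate 3), MRPS30 in 4 (0.58 without DMSO replicate 1 and 0.57 without THZ531 replicate 2) and MRPL14 in 5 (0.58 without DMSO replicate 3). The genes just under the threshold passed it in some of these fits, MRPL21 in 3, as often as MRPL34, MRPS11 in 2, and MRPL41 and MRPL44 in 1 each. MRPL54 and the 5 down-regulated loci were called in all 6 fits.

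**Figure D2:**
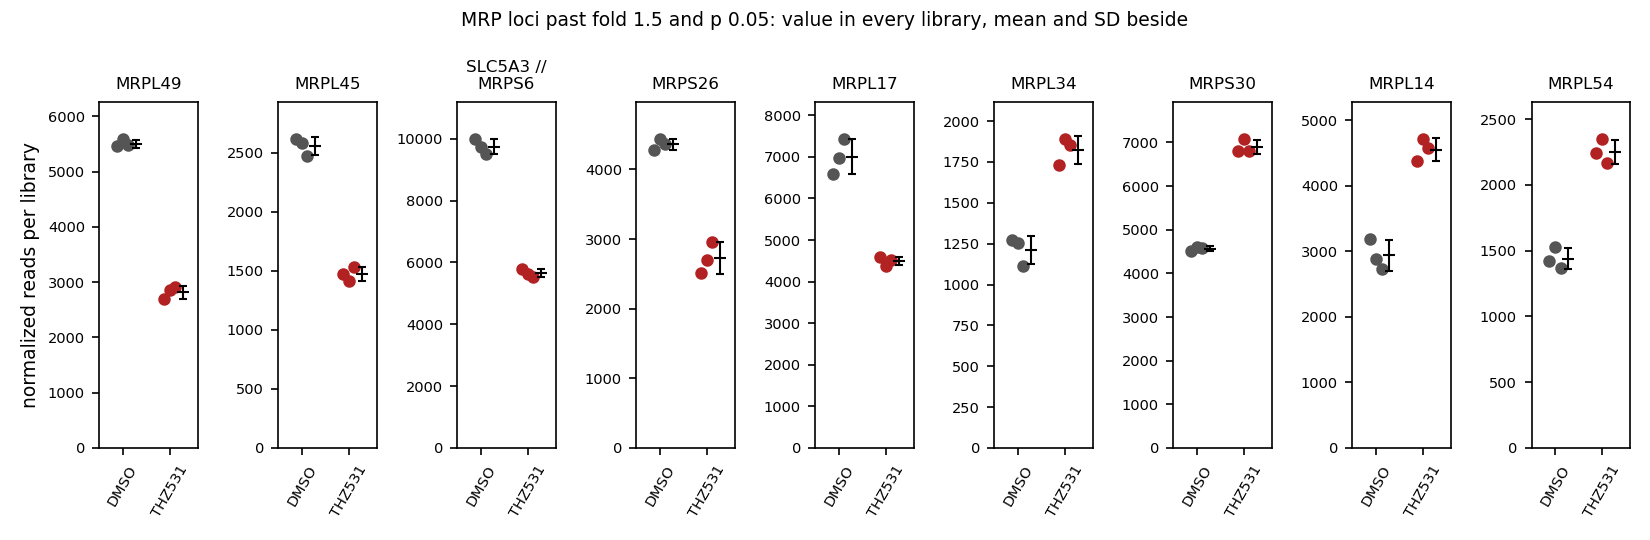
Normalized read counts (y axis, from 0, 1 scale per gene) of the 9 called loci in the 3 DMSO libraries (gray) and the 3 THZ531 libraries (red), with the mean and SD to the right of the points. In each of the 9 panels the groups do not overlap, with MRPL49 falling from 5505 ± 72.8 to 2818 ± 118 and MRPL54 rising from 1438 ± 78.6 to 2252 ± 91.2.

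The medians of the subunits lay on opposite sides of 0 on the deposited scale, but both were below 0 with all libraries brought to the same total (-0.13 for the large and -0.41 for the small subunit) or to RPL34 (-0.38 and -0.66). Of the 50 large subunit genes, 4 were called higher and 3 lower, with a median log2 fold change of 0.12 and 29 genes above 0. Of the 26 small subunit genes, none was called higher and 2 lower, with a median of -0.17 and 9 above 0. The shares called were 14% and 7.69%, or 4% of the small subunit without the joined locus (1 of 25), against 39.5% of all loci. This order turned under other scalings. With the upper quartile the shares were 10% and 11.5%, against 39.4% of all loci. With the same total they were 14% (0 higher, 7 lower) and 26.9% (0 and 7), against 41.3%. With RPL34 they were 32% (0 and 16) and 53.8% (0 and 14), against 49.0%. At an adjusted p of at most 0.05 (limma, any fold, as deposited), 25 large subunit genes were higher and 15 lower, against 6 and 14 small subunit genes, and 34.6 and 34.1% of all loci. Summed over the genes of each, the large subunit read 194241 ± 2948 in DMSO and 202369 ± 1360 in THZ531, and the small subunit 132941 ± 1735 and 124109 ± 1428 (SD, n = 3). Neither pair of groups overlapped, the ratios being 1.042 and 0.934, or 0.962 for the small subunit without the joined locus. The difference between the subunits was not tested, since genes are not replicates.

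By descent, the 45 genes shared with bacteria showed a median change (log2) of -0.02, with 2 called higher and 2 lower, and the 31 genes particular to mitochondria had a median of 0.00, with 2 called higher and 3 lower. The shares called were 8.89% and 16.1%, both under the 39.5% of all loci. MRPS36, which is now regarded as a subunit of the 2-oxoglutarate dehydrogenase complex and not of the ribosome, read 794 ± 63.2 in DMSO and 760 ± 18 in THZ531 (log2 fold change -0.06, adjusted p = 0.51, limma).

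The 3 paralogs related to bacterial S18 occupy different sites of the ribosome, MRPS18A in the large subunit and MRPS18B and MRPS18C in the small subunit. Of the 3, MRPS18A alone passed an adjusted p of 0.05. MRPS18A read 3716, 3591 and 3632 in DMSO and 2635, 2577 and 2833 in THZ531, with no overlap (log2 fold change -0.44, SE 0.05, adjusted p = 5.7e-07, limma). MRPS18B read 7191, 6683 and 6624 against 6520, 6511 and 6550, a log2 fold change of -0.07 that did not pass (adjusted p = 0.17, limma). MRPS18C read 976, 895 and 969 against 924, 865 and 876, with overlap between the groups (log2 fold change -0.09, adjusted p = 0.26, limma). Exons of other genes on the opposite strand cover 60.6% of the MRPS18A transcript and 83.6% of the MRPS18C transcript, and the strand used for counting is not given in the sources used here. RSPH9, opposite MRPS18A, had means of 38.8 in DMSO and 36.3 in THZ531. ABRAXAS1, opposite MRPS18C, had means of 104 and 77.4. Their part in the values of the paralogs was not tested. MRPL12, the mitochondrial counterpart of the L7/L12 stalk protein, read 10719, 10365 and 9121 in DMSO and 7816, 7865 and 8448 in THZ531 (log2 fold change -0.32, SE 0.05, adjusted p = 5.3e-05, limma), a change under the fold threshold.

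Levels were compared between genes per kilobase of annotated exon, with the MANE Select transcript of GENCODE v44 as the length, over the 76 loci with only an MRP symbol. In DMSO the level per kilobase spanned a 153-fold range, from 133 to 20369 normalized reads per kilobase with a median of 2589, although most of the proteins enter the ribosome in equal ratio. The highest was MRPL20 at 20369 ± 584 (SD, n = 3), a large subunit protein shared with bacteria, then MRPS34 at 17684 ± 340, particular to mitochondria, and MRPL33 at 15007 ± 545, shared with bacteria. The values of these 3 did not overlap between genes, whereas those of the following MRPL43 (10293 ± 183), MRPL51 (10287 ± 246) and MRPL12 (9978 ± 831) did. Exons of MRPL20-AS1 on the opposite strand cover 19.7% of the MRPL20 transcript, and those of EME2 32.6% of the MRPS34 transcript. Exons of an unnamed gene on the same strand cover 69.5% of the MRPL12 transcript. The MRPL43 locus spans 9680 bases, against 999 bases of exon and 230 of intron in its MANE transcript. Reads from outside that transcript would raise its level per kilobase. The lowest were MRPL19 (133 ± 5.43), MRPL42 (249 ± 34.8) and MRPL35 (389 ± 53.3). The values of MRPL35 overlapped those of the following MRPL50 (400). The annotated transcripts of MRPL19, MRPL42 and MRPL35 are long (7825, 15557 and 3723 bases, against a median of 1224), so that a cell that uses a shorter transcript would have a higher level per kilobase than given.

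The order of the levels was nearly kept after treatment (Spearman's rho of 0.945 across the 76 genes, which share libraries and are no independent points). The largest change among the top 3 was that of MRPL33, whose level per kilobase went from 15007 ± 545 to 21483 ± 328 and was then the highest of all. Its normalized reads were 7910, 7357 and 7604 in DMSO and 11090, 10893 and 10758 in THZ531 (log2 fold change 0.52, SE 0.04, adjusted p = 5.7e-09, limma), a change under the fold threshold. MRPS34, with 17648 ± 339 and 17694 ± 324, did not differ beyond its spread (log2 fold change 0.00, SE 0.03), and MRPL20 had a log2 fold change of -0.16 (SE 0.03). Of the low genes, MRPL19 had a log2 fold change of 0.43 (adjusted p = 1.7e-05), MRPL35 of 0.22 (adjusted p = 0.029) and MRPL42 of 0.04 (adjusted p = 0.65), all in limma.

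Gene structure was compared because CDK12 is known for its role in the transcription of long genes and in the suppression of intronic polyadenylation. MRP genes are compact, with a median span of the locus in the table of 8618 bases, against 27951 for all tested loci with a symbol, and a median of 5 exons. Across the 77 genes, Spearman's rho between span and log2 fold change was 0.17, and it was -0.06 across the 15278 tested loci with a symbol. For the longest intron it was 0.10, for the first intron 0.03 and for the length of the MANE transcript -0.20. By locus span, the 26 shortest genes (677 to 5336 bases) showed a median change (log2) of -0.12, the middle 25 of -0.05 and the 26 longest (14362 to 351418 bases) of 0.13. Some loci of the table are wider than the annotated gene, MRPS22 above all. By the genomic span of the MANE transcript (677 to 111543 bases) the medians were -0.12, -0.04 and 0.12, and rho was 0.12. These are weak relations over genes that share all 6 libraries, given as a description.

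Some MRP genes start back to back with a neighbor on the other strand, so that a single stretch of DNA can serve as promoter for both. How common this is among all genes was not counted. In GENCODE v44, 19 of the 77 genes had a protein-coding neighbor that starts within 1000 bases upstream on the other strand, and for 17 of them the neighbor was tested in these libraries. The neighbors named below were chosen after their values were seen. Of the MRP genes of these pairs 2 were called, and of the neighbors 8, with 2 higher and 6 lower, where 39.5% of all loci were called. With the same total 2 MRP genes were called, and of the neighbors 1 was higher and 10 lower (41.3% of all loci). With RPL34 these counts were 7, 0 and 12 (49.0% of all loci). As deposited, the median size of the change was 0.27 for the MRP genes and 0.57 for the neighbors, and 11 of the 17 pairs had the same sign. MRPS11 and MRPL46 are neighbors of each other and count as 2 pairs, so that both also stand among the neighbors. The median given for the neighbors is the change of MRPS11 itself. A difference within a pair does not depend on how the libraries were scaled, apart from the pseudocount.

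In 2 pairs the genes were called in opposite directions on the deposited scale and with the upper quartile, and in 0 with the same total or RPL34, where FAU (0.396 and 0.145) and MRPL54 (0.40 and 0.15) were not called. The first was MRPL49 and FAU, whose starts are 144 bases apart. FAU encodes the cytosolic ribosomal protein S30 fused to a ubiquitin-like protein. It read 13338, 11536 and 10291 in DMSO and 18162, 17842 and 18443 in THZ531 (log2 fold change 0.64, SE 0.06, adjusted p = 2.3e-07, limma). FAU thus rose while MRPL49 fell by 0.97. At its other end the MRPL49 locus overlaps that of SYVN1, a ubiquitin ligase gene, by 93 bases, and SYVN1 fell by 0.69 (adjusted p = 5.1e-09, limma). The second was MRPL54, which rose by 0.65, and APBA3, which starts 990 bases away and fell from 308 ± 12 to 168 ± 28.7 (-0.88 on the log2 scale, limma adjusted p = 4.5e-05).

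In other pairs the neighbor fell and the MRP gene was not called. MRPL27 was at -0.04 on the log2 scale (limma adjusted p = 0.60), while EME1, a subunit of a structure-specific nuclease of DNA repair that starts 36 bases away, fell from 914 ± 59.7 to 379 ± 70.8 (-1.28 on the log2 scale, limma adjusted p = 8.7e-08). MRPS18C had -0.09, while HELQ, a helicase of DNA repair whose start is close by, fell from 178 ± 28 to 84.4 ± 8.78 (-1.06 on the log2 scale, limma adjusted p = 9.4e-05). MRPL50 had a log2 fold change of 0.33, while ZNF189, a zinc finger gene that starts 233 bases away, fell from 644 ± 11.1 to 136 ± 37.3 (-2.27 on the log2 scale, limma adjusted p = 2.4e-09). PTCD2 fell by 0.97 beside MRPS27 (-0.29) and SKA3 by 0.89 beside MRPL57 (-0.27), with adjusted p of 3.8e-06 and 1.7e-08 (limma). MRPL21 and IGHMBP2, whose starts are 31 bases apart, were both higher in THZ531. MRPL21 read 2976, 2588 and 2485 in DMSO and 4236, 3853 and 3821 in THZ531 (log2 fold change 0.57, SE 0.06), and IGHMBP2, which encodes a helicase, rose from 757 ± 40.9 to 1444 ± 94.5 (0.93 on the log2 scale, limma adjusted p = 9.9e-09).

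**Figure D3:**
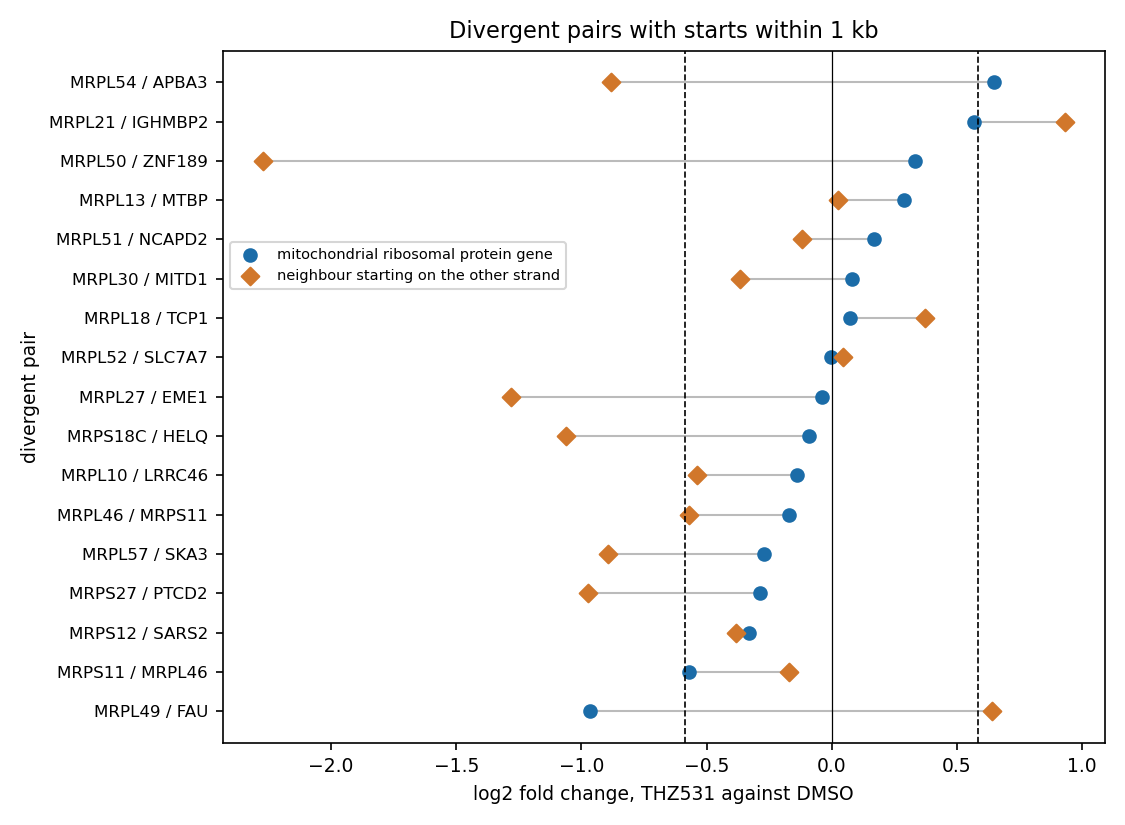
Log2 fold change (x axis, THZ531 against DMSO) of 17 MRP genes (blue circles) and of the protein-coding neighbor that starts within 1000 bases on the other strand (orange diamonds), 1 pair per row, with dashed lines at a fold change of 1.5. The circles lie between -0.97 and 0.65, whereas the diamonds reach from -2.27 (ZNF189) to 0.93 (IGHMBP2), and in the MRPL49 and FAU pair the symbols lie on opposite sides of 0.

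The promoters of the MRP genes were then examined for the letters of factors that are known to drive nuclear genes for mitochondria. RefSeq windows on GRCh38.p14, from 250 bases before to 50 bases after the start, were in hand for 68 of the 77 genes, with the window nearest to the MANE start taken where a gene had several (10 genes). Words of 8 letters and shorter boxes were searched on both strands, and matches could overlap. The word AAGATGGC, of the YY1 motif, was found in 20 of the 68 windows (29.4%), against 2.89% of the 35116 windows of all genes. The word ACTTCCGG, of the ETS motif bound by GABPA, was found in 11 (16.2%, against 4.14%), and GCGCATGC, of the NRF1 motif, in 6 (8.82%, against 3.05%). At least 1 of these was present in 29 genes (42.6%, against 9.36%), and 7 genes had 2 or more. The TATA box, searched as TATAAA, was found in 3 (4.41%, against 11.5%). The 35116 are all windows in hand, whereas each MRP gene was given 1 window, so that the shares compare sets built differently. No p is given for these shares, since windows of neighbors overlap.

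The YY1 word lay mostly just after the start. It contains ATG, the letters of a start codon, and whether its matches lie at the start of translation was not tested. In 16 of the 20 genes it lay after the start on the strand of the gene, with its first base 7 to 36 bases from the start, counted from 1 at the first transcribed base. The site is shown for the 3 called genes that carry it, 2 down-regulated and 1 up-regulated, with the word in capitals and 11 bases on either side, 5′ to 3′ on the strand of the gene. They lie at chr11:65122333-65122362 (MRPL49), chr17:38297170-38297199 (MRPL45) and chr5:44808949-44808978 (MRPS30), all on the plus strand.
MRPL49: cgtagcaggtaAAGATGGCagctaccatgt
MRPL45: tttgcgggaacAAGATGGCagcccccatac
MRPS30: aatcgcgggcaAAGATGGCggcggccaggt

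Genes with and without a word were then compared. The median log2 fold change was -0.11 for the 20 genes with the YY1 word and -0.01 for the 48 without, 0.07 for the 11 with the ETS word and -0.07 for the 57 without, and -0.03 for the 6 with the NRF1 word and -0.03 for the 62 without. Of the 20 genes with the YY1 word, 1 was called higher and 2 lower. None of the 11 genes with the ETS word was called, and of the 6 with the NRF1 word only MRPL17 was. In comparison, 11.7% of all MRP genes and 39.5% of all loci were called. Differences between the words were not tested. The 150 bases upstream of the start are shown for MRPL49 and MRPL17, which fell, and for MRPS30 and MRPL54, which rose, so that their makeup can be compared. Capitals mark every match to the words above, to the GC box (GGGCGG) or to the CCAAT box (CCAAT) on either strand. They lie at chr11:65122171-65122320 (plus strand), chr11:6683341-6683490 (minus strand), chr5:44808797-44808946 (plus strand) and chr19:3762532-3762681 (plus strand). The MRPL49 stretch holds the whole space between the starts of MRPL49 and FAU.
MRPL49: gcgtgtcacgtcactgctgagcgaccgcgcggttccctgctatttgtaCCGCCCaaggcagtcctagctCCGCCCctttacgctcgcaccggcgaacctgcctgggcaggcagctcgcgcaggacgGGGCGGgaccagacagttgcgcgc
MRPL17: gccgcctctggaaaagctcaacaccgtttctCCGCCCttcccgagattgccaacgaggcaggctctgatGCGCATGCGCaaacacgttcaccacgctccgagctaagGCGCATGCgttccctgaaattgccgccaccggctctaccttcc
MRPS30: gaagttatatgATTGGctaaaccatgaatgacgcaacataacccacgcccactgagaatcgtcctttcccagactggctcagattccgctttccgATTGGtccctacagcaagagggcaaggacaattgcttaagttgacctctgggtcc
MRPL54: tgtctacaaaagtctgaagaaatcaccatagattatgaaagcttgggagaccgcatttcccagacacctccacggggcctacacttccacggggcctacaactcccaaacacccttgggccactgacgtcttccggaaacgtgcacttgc

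MRPL17 holds the NRF1 word at 2 places, the distal of them on both strands, and MRPL49 holds 3 GC boxes. MRPS30 has 2 CCAAT boxes and no GC box. MRPL54 has none of the words in this stretch, but its window holds the TATA box outside it. Of the 68 windows, 60.3% held a GC box (45.0% of all windows) and 27.9% a CCAAT box (34.6%), and each of the 5 down-regulated loci but only 1 of the 4 up-regulated genes had a GC box. That gene is MRPL14, the only one of the 68 whose window starts away from the MANE start, by 144 bases. Over all 68 windows, the median log2 fold change was -0.05 for the 41 genes with a GC box and 0.04 for the 27 without. The split among the called loci was noticed after the values were seen and is a description of 9 loci, and a match to letters is no evidence of binding.

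Of the factors behind these words, YY1 and GABPA were called higher and NRF1 was not called. They belong to 9 listed regulators of mitochondrial biogenesis, of which 4 were called higher and 3 lower (77.8%, against 39.5% of all loci). GABPA, the subunit that binds the ETS word, rose from 1080 ± 27.8 to 1912 ± 108 (0.82 on the log2 scale, adjusted p = 6.4e-09), while its partner GABPB1 fell from 1371 ± 135 to 701 ± 51.7 (-0.97 on the log2 scale, adjusted p = 3.5e-08). The coactivators PPARGC1B and PPRC1 rose by 0.82 and 0.70 (adjusted p = 2.8e-07 and 1.1e-10), whereas the nuclear receptor ESRRA fell by 1.51 (adjusted p = 3.0e-11) and TFEB, a regulator of lysosomes and mitochondria, fell by 2.69 (adjusted p = 3.8e-09, all in limma). YY1 and NRF1, given here for their words and not by the rule for named genes, read 13335 ± 379 and 1083 ± 51.5 in DMSO and 21351 ± 140 and 1528 ± 72.9 in THZ531 (log2 fold changes 0.68, called, adjusted p = 6.7e-11, and 0.50, not called, adjusted p = 3.8e-06, limma). With all libraries brought to the same total or to RPL34, 0 of the 9 were called higher and 3 lower (33.3%, against 41.3 and 49.0% of all loci), so that the rises named here hold on the deposited scale.

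The 5 subunits of the mitochondrial ribosome whose symbols do not follow the MRP pattern, DAP3, PTCD3, CHCHD1, AURKAIP1 and GADD45GIP1, showed a median change (log2) of 0.15 as deposited and of -0.09 with the same total, and none was called under either. With RPL34 their median was -0.34 and 1 was called lower (20%, against 49.0% of all loci). Of the genes that act around the ribosome, more were called lower than higher, as among all loci, of whose calls 60.4% were lower as deposited, 77.3% with the same total and 87.5% with RPL34. Among 30 tested genes for assembly of the ribosome and maturation of its rRNAs, 1 was called higher and 7 lower (26.7%, against 39.5% of all loci), with a median of -0.23. With the same total 0 were called higher and 12 lower (40%, against 41.3%), and with RPL34 0 and 17 (56.7%, against 49.0%). The largest falls were those of METTL15 and MRM1, methyltransferases of the small and the large rRNA, which fell by 1.2 and 0.90, and of the pseudouridine synthase TRUB2, which fell by 0.82 from 2168 ± 85.6 to 1232 ± 85.6. The rRNA nuclease YBEY and the helicase DDX28 both fell by 0.67, and the pseudouridine synthase RPUSD3 fell by 0.63. The adjusted p of these 6 lay between 9.5e-09 (TRUB2) and 5.6e-05 (RPUSD3, limma). The gene called higher was RPUSD4, with 0.62, named after its value was seen. It read 742, 557 and 648 in DMSO and 956, 1006 and 1009 in THZ531. On these values its fold change without DMSO replicate 2 would be under 1.5. RPUSD3 was not called without DMSO replicate 1 (-0.56) or THZ531 replicate 2 (-0.53).

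Among 15 mitochondrial translation factors none was called higher and 5 were called lower (33.3%, against 39.5% of all loci), with a median of -0.43. With the same total 8 were called lower (53.3%, against 41.3%) and with RPL34 10 (66.7%, against 49.0%). The ribosome rescue factor MTRES1 read 367, 372 and 362 in DMSO and 81.9, 76.2 and 75.1 in THZ531 (log2 fold change -2.23, SE 0.15, adjusted p = 1.4e-09, limma). MTRFR, which also acts in rescue of stalled ribosomes, read 1165, 1154 and 1156 in DMSO and 252, 280 and 243 in THZ531 (log2 fold change -2.16, SE 0.09, adjusted p = 6.3e-12, limma). Both fell further than any MRP gene. MTFMT, which formylates the initiator tRNA, fell by 1.15, TACO1, an activator of COX1 translation, by 0.99 and the release factor MTRF1 by 0.83 (adjusted p = 1.7e-08, 5.8e-06 and 7.0e-04, limma). The elongation factor TUFM, given here outside the rule for named genes, read 16491 ± 615 in DMSO and 18443 ± 334 in THZ531. Its log2 fold change of 0.16 as deposited (adjusted p = 0.00084, limma) was under the fold threshold, so it was not called.

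Among 20 genes of mitochondrial transcription and RNA processing 2 were called higher and 4 lower (30%, against 39.5% of all loci), with a median of 0.17 as deposited and -0.07 with the same total. With the same total 0 were called higher and 6 lower (30%, against 41.3%), and with RPL34 0 and 9 (45%, against 49.0%). MTPAP, the mitochondrial poly(A) polymerase, and TFB2M, an initiation factor of mitochondrial transcription, rose by 0.77 and 0.75 as deposited (adjusted p = 3.8e-09 and 8.1e-09) and were at 0.53 and 0.51 with the same total, where they were not called. FASTKD1, which acts on mitochondrial mRNAs, fell by 1.16, MTERF2 fell by 1.93 and the elongation factor TEFM fell by 0.79 (adjusted p = 1.7e-09, 4.5e-08 and 1.6e-06, all in limma). The other locus called lower joins UBOX5 and FASTKD5 and fell by 1.97 (adjusted p = 8.8e-05, limma), which cannot be assigned to FASTKD5, and without it 3 of 19 were called lower. It is low, with 85.4 ± 12.5 normalized reads in DMSO and 22.4 ± 9.63 in THZ531, and its fold change is understated by the pseudocount.

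**Figure D4:**
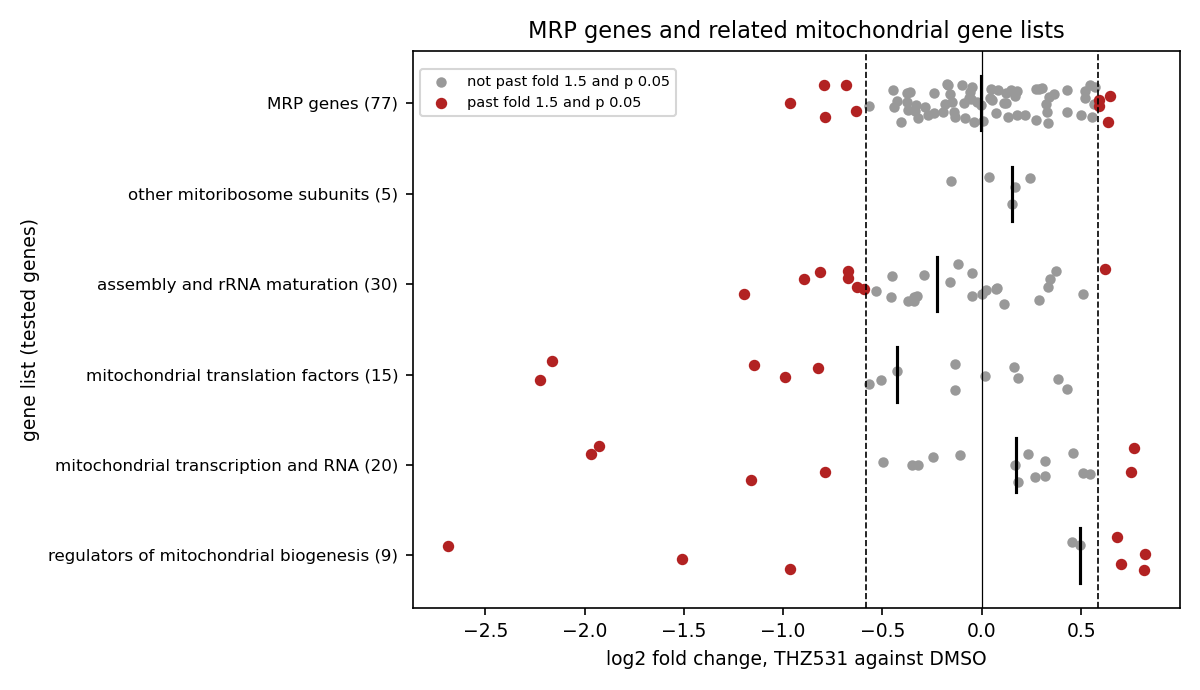
Log2 fold change (x axis, THZ531 against DMSO) of the 77 MRP genes and of the tested genes of 5 related lists, 1 point per gene, with red points past a fold change of 1.5 and an unadjusted p of 0.05, black bars at the list medians and vertical jitter without meaning. The MRP genes stay between -0.97 and 0.65, whereas genes of 4 of the other lists reach below -1, down to -2.69 for TFEB.

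The spread of the MRP genes stood beside that of 2 other sets of genes for protein complexes with many subunits. The 84 tested genes of the cytosolic ribosome showed a median change (log2) of 0.40, and the middle 50% of them spanned 0.18 log2 units, with 82 above 0. The 77 tested nuclear genes of the respiratory chain had a median of 0.35 and a span of 0.21, with 73 above 0. The MRP genes had a median of 0.00, a span of 0.53 and 38 above 0. The shares called were 9.52% of the cytosolic ribosomal genes and 10.4% of the respiratory chain genes, against 11.7% of the MRP genes and 39.5% of all loci. With the same total they were 2.38, 2.60 and 18.2% of these sets against 41.3% of all loci, and with RPL34 2.38, 1.30 and 39.0% against 49.0%. With the same total the medians were 0.16, 0.10 and -0.25, in the same order, and with each library scaled to RPL34, a cytosolic ribosomal gene, -0.09, -0.15 and -0.50. The difference in spread was not tested, since genes are not replicates.

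**Figure D5:**
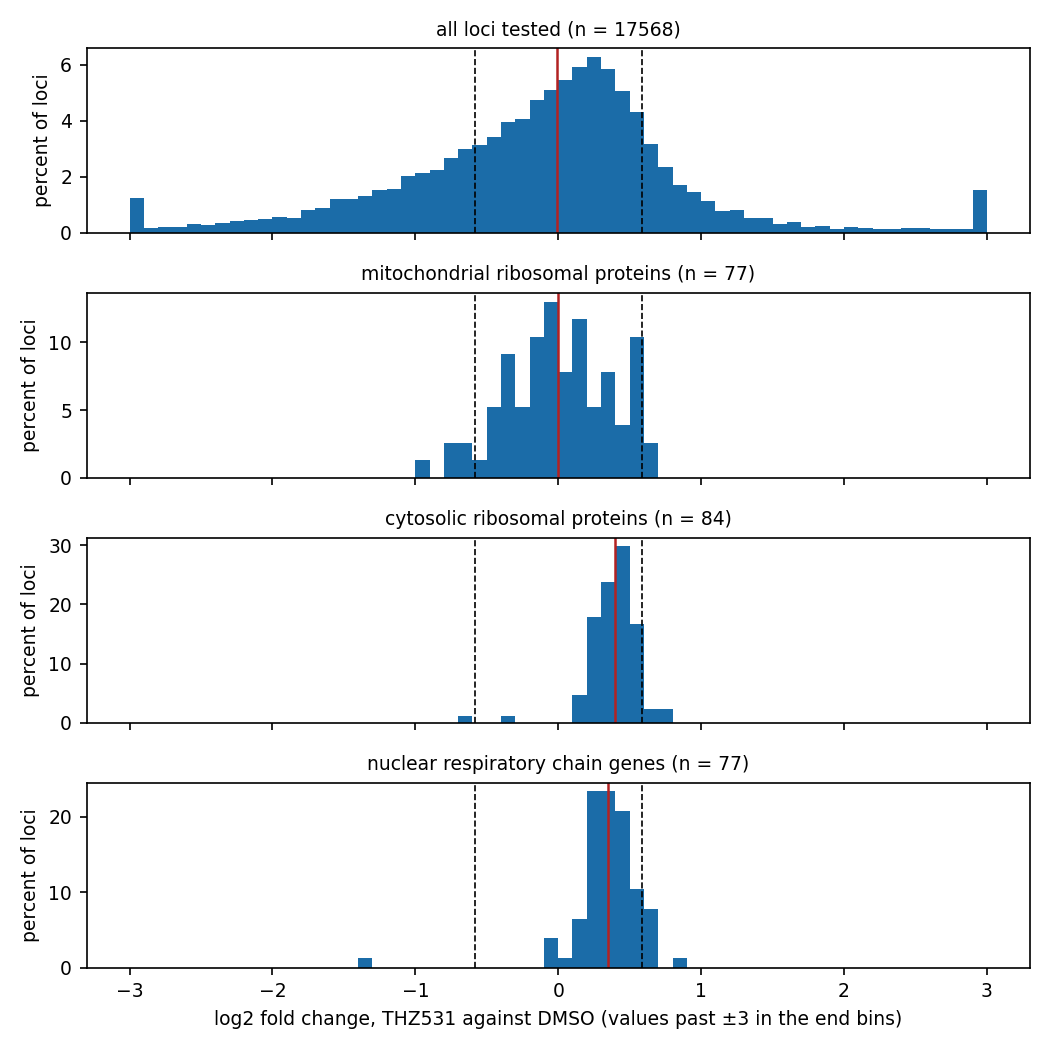
Percent of loci (y axis) by log2 fold change (x axis, THZ531 against DMSO, bins of 0.1) for all loci tested, the MRP genes, the cytosolic ribosomal protein genes and the nuclear respiratory chain genes, with the median in red and dashed lines at a fold change of 1.5. The MRP genes center on the median of all loci near 0 with a narrower spread, whereas the other sets form narrow peaks with medians of 0.40 and 0.35 on the deposited scale, which are -0.09 and -0.15 when scaled to RPL34.

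Other loci that bear an MRP symbol or lie inside an MRP locus were examined as well. Of 7 antisense, divergent or pseudogene loci with an MRP name, 4 were tested, with 0 called higher and 2 lower, against 39.5% of all loci called. The pseudogenes MRPL45P2 (-0.17) and MRPS31P5 (-0.25) were not called, and MRPS9-AS1 fell by 1.19 from 29.8 ± 1.27 to 12.6 ± 2.44 (adjusted p = 0.015, limma). MRPL20-AS1, an antisense RNA that overlaps the locus of MRPL20 by 137 bases, read 2427, 2256 and 2301 in DMSO and 799, 789 and 678 in THZ531 (log2 fold change -1.63, SE 0.07, adjusted p = 1.3e-11, limma), a locus named after its value was seen. MRPL20 itself was lower by less than the fold threshold (-0.16, limma adjusted p = 0.00064), and reads of the overlap cannot be assigned to either strand. Within 8 MRP loci the table lists 12 loci without a symbol, 6 of them inside the MANE transcript of the gene and 6 only inside the wider table locus. Of the 12, 5 were tested, with 2 called higher and 1 lower (39.5% of all loci were called). These few loci are listed as a description. The most abundant lies in MRPS22, starts 9926 bases from the start of the MANE transcript, and read 195, 354 and 292 in DMSO and 458, 391 and 413 in THZ531 (log2 fold change 0.63, SE 0.17, adjusted p = 0.0037, limma). The other 4 read at most 35.3 in any library. Exons of another gene cover at least 10% of the transcript on the opposite strand in 17 MRP genes and on the same strand in 13, and 36 have pseudogenes named after them, so that reads of these genes could be split or shared.

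The direction of the group as a whole depended on how the libraries were scaled. The share of all counted reads that fell on the MRP genes was 0.601, 0.587 and 0.571% in the DMSO libraries and 0.491, 0.492 and 0.499% in the THZ531 libraries, with no overlap. With all libraries brought to the same total, 0 MRP genes were called higher and 14 lower (18.2%, against 32.0% of all loci called lower), with a median of -0.25, and with scaling to RPL34, which had a log2 fold change of 0.49 as deposited, 0 higher and 30 lower (39.0%, near the 42.8% of all loci), with a median of -0.50. These scalings moved the median of all loci by -0.24 and -0.49, and the median of the MRP genes stayed within 0.01 of that of all loci under each. The 5 down-regulated loci were called lower under all of the scalings tried, while of the 4 up-regulated genes 2 (MRPL14 and MRPL54) were called higher with the upper quartile and 0 with the same total or RPL34. CDK12 had a log2 fold change of 0.39 (adjusted p = 3.0e-07) and CDK13 of -0.02 (adjusted p = 0.70, limma), both under the fold threshold.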

How the data were processed

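PolyA RNA of OVCAR3 cells was sequenced by the authors as 150 bp paired-end reads, aligned with STAR to hg38 (2.7.5a in the submitters' processing notes, another version in the methods of the study) and counted per gene with featureCounts on the FAST DB annotation. The deposited signal is that read count divided by the DESeq2 size factor of its library. Division by the value of 1 read gave whole reads (within 0.1 reads) for 100% of values in each of the 6 libraries.

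The 17568 loci that reached 10 in 3 or more libraries were tested with limma 3.58.1 (trended variance, log2(value + 1), two-sided) in R 4.3.3, and p-values were adjusted over all of them by the Benjamini-Hochberg procedure. Scripts were tested on simulated data. Alternatives were edgeR 4.0.16 and DESeq2 1.42.0 on the recovered reads (39.1% and 38.6% of loci called), other scalings, pseudocounts, minimums and call rules, a replicate block, and leaving out each library. Replicate numbers do not pair the libraries, and the sources used here do not say whether the repeats came from separately grown cultures. Lengths, exons and neighbors come from GENCODE 44, and promoters from RefSeq.

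The genes and lists were chosen with earlier results of these data known. Named were all called MRP genes, the 5 highest and 5 lowest changes, the 3 highest and 3 lowest levels per kilobase, the MRPS18 paralogs, MRPL12, joined loci, up to 6 called genes per list, CDK12, CDK13 and RPL34.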

Additional observations from a re-analysis of the deposited data

How the results depend on the processing

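The number of MRP genes called higher was 4 as reported, 2 with upper quartile scaling, 2 with edgeR, 0 with the same total and 0 with RPL34 scaling. The number called lower was 5 as reported, 6 with upper quartile scaling and with edgeR (MRPS11 added), 14 with the same total and 30 with RPL34 scaling, and the median log2 fold change was then -0.25 and -0.50. An adjusted p of at most 0.05 at any fold gave 31 higher and 29 lower, and a fold of 2 gave 0 and 0. These scalings move all loci alike, and the looser rule drops the fold threshold. Leaving out each library in turn gave 3 to 5 higher, 5 to 6 lower and a median from -0.036 to 0.033.

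The sign of values near 0 changed for MRPS34 with the same total (-0.24), upper quartile (-0.0173), RPL34 (-0.49), edgeR (-0.0179) and without DMSO replicate 2 (-0.0109) or THZ531 replicate 3 (-0.0111, range to 0.0167), for MRPL35 with the same total (-0.0268) and RPL34 (-0.28), and for MRPL42 with the same total (-0.20), RPL34 (-0.45), without DMSO replicate 1 (-0.079, range to 0.112) and without THZ531 replicate 1 (-0.0045). With RPL34 scaling it also changed for MRPL19 (-0.063) and CDK12 (-0.11). Of the other comparisons of named genes, 730 kept their direction and their side of the threshold, 30 fell below it and 7 passed it.

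Same-numbered libraries did not deviate together (correlations of 0.0017, 0.019 and -0.039), so the numbers were not taken to pair them. With the replicate block 4 MRP genes were called higher and 5 lower, the same 9 loci. Depth limits none of the MRP genes, but 3 libraries a group and a single cell line limit what the p-values cover, and the strand of counting is not given in the sources used here.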
